A study of Homo sapiens with 6 samples.

Results

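Mucin-type O-glycans are sugar chains built stepwise in the Golgi on serine and threonine residues. Polypeptide N-acetylgalactosaminyltransferases (the GALNT family) attach the initiating sugar, core enzymes set the branch point, N-acetylglucosaminyl and galactosyl transferases lengthen the chains, and sialyltransferases and fucosyltransferases cap them. Several of the later enzymes also act on N-glycans and glycolipids, and pancreatic and other gastrointestinal epithelia use them to make Lewis-type structures such as sialyl Lewis a. The 45 genes described here were chosen by name as enzymes of these steps, out of 58735 genes in the deposited table.

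The data are RNA-seq libraries of AsPC-1, an established human pancreatic cancer cell line, in 2 groups of 3. Vector cells carried an empty lentivirus, and OE-MMP28 cells carried a lentivirus encoding MMP28, a secreted matrix metalloproteinase. Per the study's methods, stable lines carried a GFP and puromycin-resistance backbone and were selected with puromycin, so that infection and selection were common to both groups. No age, time point or clone number was given for the cells, and the labels do not say that the 3 samples of a group came from separate cultures, so p-values measure the spread between these samples, which may be technical. The comparison asks which transcripts of the glycan-building enzymes differed once MMP28 was raised.

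The overexpressed gene was at 7.57 ± 2.11 FPKM in Vector and 14 ± 1.01 FPKM in OE-MMP28 (SD, n = 3), where FPKM is a count divided by gene length and library total. The groups did not overlap, the two-sided exact permutation p was 0.1, the smallest that 3 against 3 allows, and the log2 fold change was 0.90 (edgeR adjusted p = 0.00226). Total counts ran from 13633249 to 14985715 in Vector and from 15568066 to 16691458 in OE-MMP28, and 3 counts, taken as the limit that a count of 0 allows, equalled 0.180 to 0.220 CPM, a count scaled by depth alone. Mitochondrial genes took 11.9% to 14.8% of the counts in Vector and 8.80% to 11.9% in OE-MMP28. Epithelial keratins and EPCAM summed to 2562 to 3498 FPKM in Vector and 3503 to 4294 FPKM in OE-MMP28. The ductal keratin KRT7 added little to that sum, on 36 to 153 counts a library. Of the fibroblast, leukocyte and endothelial markers, 5 of 6, 5 of 5 and 4 of 4 stayed at or under 30 counts in every library. The remaining fibroblast marker, LUM, was far above that, at 1499 to 2707 counts. Among these markers PECAM1 was higher in OE-MMP28 (0, 4 and 4 counts against 13, 21 and 30, log2 fold change 2.79, adjusted p = 0.00361), and of the epithelial genes KRT19 was higher (log2 fold change 0.71, adjusted p = 0.00175). The parts of depth, mitochondrial share and marker levels in the results were not tested, and in bulk RNA fewer cells of a type and less RNA per cell cannot be told apart.

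The 45 genes were chosen with earlier results of these data known, so the shares below describe the list and are no test of it. Of the 45 enzyme genes, 35 had enough counts to be tested and 10 did not. In OE-MMP28 cells 11 rose, or 31.4% of those tested, against 11.7% of all 15319 genes tested, and 3 fell, or 8.57%, against 11.6% of all genes (edgeR, Benjamini-Hochberg adjusted p under 0.05). The rises were led by the sialyltransferase ST3GAL6, the initiating enzyme GALNT6 and the fucosyltransferase FUT8, and the falls were those of ST3GAL5, FUT11 and GALNT5. The median log2 fold change was 0.21 over the 35 genes and 0.014 over all genes tested, with 27 positive and 8 negative values. In scaled CPM, 19 of the 35 (54.3%) had groups without overlap, against 38.1% of all genes, and these 19 included each of the 14 that passed the test. The count of rises was 7 without OE-MMP28 library 2 and 7 under limma on log2 FPKM. When the median change of the neighbouring genes within 5 Mb was taken as an offset, 1 gene rather than 3 was lower. Shares of all genes past the test under these other settings are not given, so the smaller counts may not be particular to the enzymes.

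**Figure D1:**
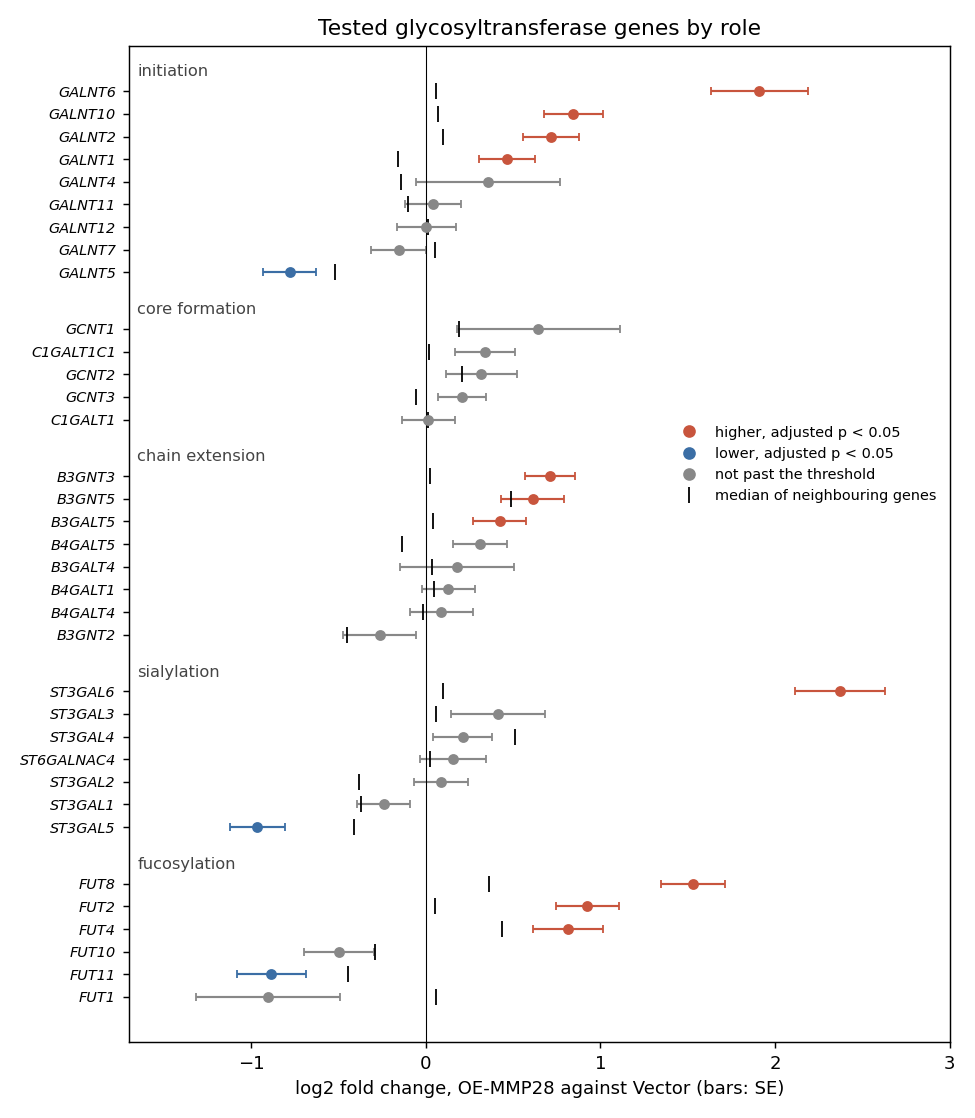
Log2 fold change of OE-MMP28 against Vector for the 35 tested enzyme genes, grouped by role, with bars of 1 SE and a tick at the median of the tested genes within 5 Mb either side. The 11 orange points are the genes that rose, up to 2.37 for ST3GAL6. The 3 blue points are the genes that fell, down to -0.96 for ST3GAL5. No gene grouped under core formation is coloured.

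The 14 genes lay on 11 chromosomes. For 6 of the 14, the neighbouring genes had moved the same way by more than 0.3 on the log2 scale, and these medians are given beside each gene below. The calls of 7 genes (GALNT6, GALNT10, B3GNT3, ST3GAL5, ST3GAL6, FUT2 and FUT8) held under each of 17 alternative settings. The share of all called genes that held likewise is not given here.

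Among the 7, the sialyl and fucosyl transferase genes with a RefSeq promoter are ST3GAL6, FUT8, FUT2 and ST3GAL5, and the 250 bases before the RefSeq start of each (GRCh38.p14) are printed below, 5′ to 3′ on the gene's strand, to show how unlike the upstream sequences of these genes are. Capitals mark matches to the motifs searched on both strands, which were the TATAAA element, the GC box with the letters GGGCGG, the CCAAT box, the E-box with the letters CACGTG and the AP-1 motif with the letters TGANTCA. The windows are chr3:98732012-98732261 (plus strand), chr14:65410342-65410591 (plus strand), chr19:48695721-48695970 (plus strand) and chr2:85888991-85889240 (minus strand), in the order printed.
ST3GAL6: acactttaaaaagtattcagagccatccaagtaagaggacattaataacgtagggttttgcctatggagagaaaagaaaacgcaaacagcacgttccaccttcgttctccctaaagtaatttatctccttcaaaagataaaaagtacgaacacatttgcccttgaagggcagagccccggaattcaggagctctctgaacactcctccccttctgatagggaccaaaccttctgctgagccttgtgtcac
FUT8: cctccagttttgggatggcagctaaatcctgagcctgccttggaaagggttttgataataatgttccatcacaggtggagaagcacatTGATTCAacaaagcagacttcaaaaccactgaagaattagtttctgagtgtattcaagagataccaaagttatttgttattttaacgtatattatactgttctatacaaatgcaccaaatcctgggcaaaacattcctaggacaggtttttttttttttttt
FUT2: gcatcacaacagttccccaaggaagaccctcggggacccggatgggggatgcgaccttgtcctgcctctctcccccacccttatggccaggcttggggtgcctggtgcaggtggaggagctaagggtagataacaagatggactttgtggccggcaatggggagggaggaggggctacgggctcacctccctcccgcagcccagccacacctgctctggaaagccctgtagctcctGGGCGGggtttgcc
ST3GAL5: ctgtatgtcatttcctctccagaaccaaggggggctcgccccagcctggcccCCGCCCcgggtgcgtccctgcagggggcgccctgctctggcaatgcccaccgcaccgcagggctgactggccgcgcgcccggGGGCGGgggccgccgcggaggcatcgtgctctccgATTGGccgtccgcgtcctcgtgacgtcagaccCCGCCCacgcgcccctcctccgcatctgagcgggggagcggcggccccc
The ST3GAL6 window was 44.0% G and C with 6 CpG sites and no match. The FUT8 window was the poorest in G and C at 36.0%, had 1 CpG and held 1 AP-1 match, TGATTCA, at bases -162 to -156 from the start. The FUT2 window (64.0%, 7 CpG sites) held a single GC box at -14 to -9. The ST3GAL5 window was a CpG-rich one (76.0%, 29 CpG sites) with GC boxes beginning at -198, -116 and -49 and an inverted CCAAT, read as ATTGG, at -81 to -77. The ST3GAL5 window lies inside the gene's span as the file gives it, since the annotated gene runs upstream to base 85905199.

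RefSeq promoters were matched for 34 of the 45 genes, and GALNT4, GALNT5, GALNT6, GALNT18, B3GALT4, ST6GALNAC1, ST6GALNAC2, ST3GAL1, ST3GAL2, FUT10 and FUT11 had no entry. A GC box was present in 67.6% of the 34 windows and in 42.3% of 27305 promoters of the same length, and the median G and C content was 68.4% against 58%. TATAAA was in 0 of the 34 windows and in 11.1% of all promoters, and CCAAT was in 26.5% against 33.0%. An AP-1 match was found in 1 of the 34 windows, that of FUT8, or 2.94% against 6.60%, and an E-box likewise in 2.94% against 6.49%. These are matches of letters and say nothing on binding.

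The initiating GALNT enzymes changed in both directions, with 4 of 9 tested genes higher (44.4%, against 11.7% of all genes), 1 lower (11.1%, close to the 11.6% of all genes) and 4 not past the test. GALNT6, one of the initiating enzymes studied in carcinomas, was at 0.436, 0.443 and 0.203 FPKM in Vector and at 1.32, 1.51 and 1.21 FPKM in OE-MMP28. Every OE-MMP28 library was above every Vector library, and the log2 fold change was 1.91 ± 0.28 (SE, adjusted p = 5.74e-05), or 3.76-fold. The gene stayed a minor one, on 22 to 176 counts. GALNT10 went from 1.38, 1.28 and 1.23 FPKM to 2.41, 2.33 and 2.21 FPKM, with tight and separate groups (log2 fold change 0.85 ± 0.17, adjusted p = 0.00139). GALNT2, a broadly expressed initiator, was at 7.70, 7.02 and 6.66 FPKM in Vector and 11.4, 13.8 and 9.81 FPKM in OE-MMP28. Its groups were separate and its log2 fold change was 0.72 ± 0.16 (adjusted p = 0.00293), which became 0.0510 without OE-MMP28 library 2, the highest one.

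GALNT1, another broadly expressed initiator, was the least secure rise of this group. Its levels were 29, 23.3 and 26.2 FPKM in Vector and 44.2, 35.1 and 28.6 FPKM in OE-MMP28. In FPKM, OE-MMP28 library 3 lay just under Vector library 1, although the groups did not overlap in scaled CPM. It rose by 0.47 ± 0.16 on the log2 scale (adjusted p = 0.0437), and 11 of 17 alternatives put the adjusted p at or above 0.05. Leaving out Vector library 2, Vector library 3, OE-MMP28 library 1 or OE-MMP28 library 2 gave adjusted p-values of 0.119, 0.119, 0.202 and 0.126.

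GALNT5 was the initiating gene with the highest level in Vector cells and the only one of its role to fall. It was at 42.2, 40.9 and 38.5 FPKM in Vector and at 25.8, 25.7 and 18.8 FPKM in OE-MMP28, so that the groups were far apart. Its log2 fold change was -0.78 ± 0.15 (adjusted p = 0.00109), a 1.71-fold fall. The 31 tested genes within 5 Mb of GALNT5 on chromosome 2 had a median of -0.52, and with that median as an offset the log2 fold change was -0.26 and the adjusted p was 0.265.

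GALNT4, GALNT7, GALNT11 and GALNT12 did not pass the test, with log2 fold changes of 0.36, -0.15, 0.040 and 0.0047 and overlapping groups. GALNT4 had 18 to 62 counts and shares 93.2% of its exon bases with the readthrough gene POC1B-GALNT4, which was counted 1 to 5 times a library, so the split of reads between them is uncertain. Summed over all 12 GALNT genes, the level was 97.5 ± 3.71 FPKM in Vector and 95.8 ± 14.8 FPKM in OE-MMP28 (SD, n = 3), with overlapping groups. The shares inside that sum differed. GALNT5 made up 41.6 ± 1.54% of it in Vector and 24.5 ± 1.18% in OE-MMP28, while GALNT1 went from 26.8 ± 2.04% to 37.3 ± 3.03% and GALNT2 from 7.31 ± 0.33% to 12.2 ± 1.69%. In each of these 3 shares the libraries of the groups did not overlap (two-sided exact permutation p = 0.1, the smallest possible with n = 3). GALNT1 was thus the leading GALNT transcript of all 3 OE-MMP28 libraries, where GALNT5 led in all 3 Vector libraries.

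**Figure D2:**
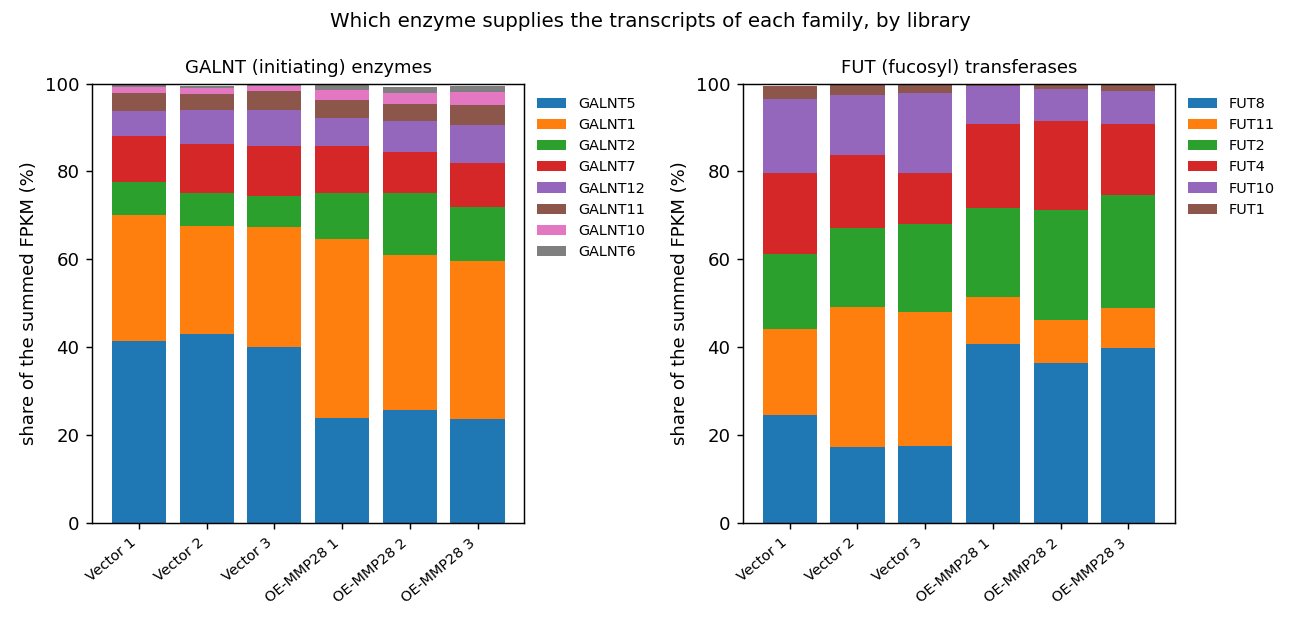
Share of the summed FPKM of the GALNT genes (left) and of the FUT genes (right) taken by each gene in each library, in percent, for genes with a mean share of at least 0.5% in a group. The GALNT5 band narrows from 40.1% to 43.1% in the Vector bars to 23.7% to 25.8% in the OE-MMP28 bars, and the FUT8 band widens from 17.3% to 24.5% to 36.4% to 40.7%.

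None of the 5 genes grouped here under core formation passed the test in edgeR (0%, against 11.7% of all genes higher and 11.6% lower). With so few genes, that count does not set them apart from all genes. Of the 5, 0 had an unadjusted p under 0.05 and 0 passed in DESeq2 or limma voom. All 5 log2 fold changes were above 0, from 0.016 to 0.64. GCNT3, the mucin-type enzyme that makes the core 2 and core 4 branches, had the highest level of all 45 genes, at 68.2, 70.1 and 71.0 FPKM in Vector and 85, 82.1 and 73.1 FPKM in OE-MMP28. Its libraries did not overlap, but the log2 fold change of 0.21 ± 0.14 missed the threshold (adjusted p = 0.293). C1GALT1, the core 1 synthase, was at 14.2 ± 0.88 and 14.2 ± 2.26 FPKM (SD, n = 3), a log2 difference of 0.016 whose sign turned with the scaling. Its dedicated chaperone C1GALT1C1 was at 16.0 ± 2.19 and 20.1 ± 3.32 FPKM (log2 fold change 0.34, adjusted p = 0.163). GCNT1 and GCNT2 were low, at 0.0854 and 1.06 FPKM in Vector, and gave 0.64 ± 0.47 and 0.32 ± 0.20 on the log2 scale. GCNT3 supplied 69.1 ± 1.65% of the summed FPKM of these 5 genes in Vector and 69.2 ± 1.99% in OE-MMP28.

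Chain extension had 3 of 8 tested genes higher (37.5%, against 11.7% of all genes) and 0 lower (against 11.6%), and the higher ones all add sugars that lengthen type 1 or core 1 chains or glycolipids. B3GNT3, the core 1 extension enzyme, was at 26.8, 28.8 and 26.0 FPKM in Vector and 43.1, 45.5 and 44.0 FPKM in OE-MMP28. The 2 groups were tight and well apart, and the log2 fold change was 0.71 ± 0.14 (adjusted p = 0.00148), or 1.64-fold. B3GNT5, which starts lacto-series glycolipids, went from 4.04, 3.05 and 3.52 FPKM to 6.35, 5.73 and 4.06 FPKM. Its groups nearly touched, and its log2 fold change was 0.61 ± 0.18 (adjusted p = 0.0183). MCF2L2, on the opposite strand, covers 16.2% of B3GNT5 exon bases and had 5 to 22 counts a library. The 65 tested neighbours of B3GNT5 on chromosome 3 had a median of 0.49, and with that offset the adjusted p was 0.693. B3GALT5, the galactosyltransferase that makes the type 1 chain under sialyl Lewis a, was at 11.4, 10.1 and 10 FPKM in Vector and 15, 15.3 and 11.6 FPKM in OE-MMP28. The groups were again close to each other, with a log2 fold change of 0.42 ± 0.15 (adjusted p = 0.0469), and the call was lost in 14 of 17 alternatives, among them the replicate block (adjusted p = 0.0555). Without Vector library 2, Vector library 3, OE-MMP28 library 1 or OE-MMP28 library 2, B3GNT3 alone of the 3 passed, with adjusted p-values of 0.0585, 0.0589, 0.0786 and 0.101 for B3GNT5 and 0.0977, 0.180, 0.113 and 0.240 for B3GALT5.

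B4GALT5, known for making lactosylceramide, was the chain extension gene with the highest level and did not pass the test. It was at 56.0, 45.2 and 44.2 FPKM in Vector and 63.0, 66.5 and 49.9 FPKM in OE-MMP28, with OE-MMP28 library 3 inside the Vector range and a log2 fold change of 0.31 ± 0.15 (adjusted p = 0.15). B4GALT1, B4GALT4, B3GALT4 and B3GNT2 had log2 fold changes of 0.13, 0.089, 0.18 and -0.26 and overlapping groups. Summed over the 9 genes, including the untested B3GNT7, the level was 118 ± 9.66 FPKM in Vector and 152 ± 15.2 FPKM in OE-MMP28 (SD, n = 3), with no overlap between libraries. B3GNT3 took 23.2 ± 2.31% of that sum in Vector and 29.3 ± 2.99% in OE-MMP28, and B4GALT5 took 41.1 ± 2.13% and 39.3 ± 1.93%.

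Among the 45 genes, the sialyltransferases held both the largest rise and the largest fall that passed the test. Of 7 tested, 1 was higher (14.3%, against 11.7% of all genes), 1 was lower (14.3%, against 11.6%), and 5 did not pass. ST3GAL6, which caps N-acetyllactosamine chains and acts in the synthesis of sialyl Lewis x, was at 0.333, 0.435 and 0.259 FPKM in Vector and 1.98, 1.46 and 1.82 FPKM in OE-MMP28. Every OE-MMP28 value was more than 3 times the highest Vector value, on 24 to 197 counts. The log2 fold change was 2.37 ± 0.26 (adjusted p = 2.34e-06), or 5.17-fold, while its 30 tested neighbours on chromosome 3 had a median of 0.098. The gene DCBLD2, on the opposite strand, covers 3.74% of its exon bases and was counted 3420 to 7621 times a library, with a log2 fold change of 0.46. The library kit does not mark strand, so reads of the pair cannot be told apart where the exons overlap. The part of DCBLD2 in the ST3GAL6 rise was not tested.

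ST3GAL5, the synthase of the ganglioside GM3, went the other way. It was at 3.37, 3.16 and 3.57 FPKM in Vector and 1.79, 1.54 and 1.81 FPKM in OE-MMP28, with no overlap. The log2 fold change was -0.96 ± 0.16 (adjusted p = 0.000212), a 1.95-fold fall. Its 41 tested neighbours on chromosome 2 had a median of -0.41, and with that offset the log2 fold change was -0.55 (adjusted p = 0.0201).

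ST3GAL1, which caps core 1, had the highest sialyltransferase level in Vector and the next after ST3GAL4 in OE-MMP28. It was at 8.80, 9.70 and 7.97 FPKM in Vector and 7.87, 7.83 and 6.53 FPKM in OE-MMP28. The groups were apart by a narrow margin, and the log2 fold change of -0.24 ± 0.15 missed the threshold (adjusted p = 0.268). ST3GAL2, ST3GAL3, ST3GAL4 and ST6GALNAC4 gave 0.086, 0.41, 0.21 and 0.16 on the log2 scale. The neighbours of ST3GAL2 on chromosome 16 had a median of -0.38, and that offset was the one of 17 alternatives under which ST3GAL2 passed, at 0.47 (adjusted p = 0.0440). Summed over the 11 sialyltransferases, the level was 30.6 ± 1.76 FPKM in Vector and 30.6 ± 0.78 FPKM in OE-MMP28. Inside that sum ST3GAL5 went from 11.1 ± 1.31% to 5.61 ± 0.61% and ST3GAL6 from 1.11 ± 0.22% to 5.76 ± 1.01%, so that the pair stood at similar FPKM levels in OE-MMP28, 1.71 ± 0.15 and 1.76 ± 0.26.

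Fucosylation had 4 of 6 tested genes past the threshold, 3 higher (50%, against 11.7% of all genes) and 1 lower (16.7%, against 11.6%). FUT8, which adds the core fucose of N-glycans, was at 4.34, 2.82 and 2.92 FPKM in Vector and 11, 9.01 and 9.0 FPKM in OE-MMP28. The lowest OE-MMP28 library was above the highest Vector library by a wide margin. Its log2 fold change was 1.53 ± 0.18 (adjusted p = 6.82e-06), or 2.89-fold, with a median of 0.36 over its 53 tested neighbours on chromosome 14 and a log2 fold change of 1.17 with that offset (adjusted p = 0.000172). FUT8-AS1, an opposite-strand transcript over 12.3% of FUT8 exon bases, had 3 to 15 counts a library against 255 to 1161 for FUT8. FUT2, the secretor enzyme that builds H antigen in epithelia, was at 3.02, 2.93 and 3.31 FPKM in Vector and 5.44, 6.20 and 5.82 FPKM in OE-MMP28. Both groups were tight and separate (log2 fold change 0.93 ± 0.18, adjusted p = 0.00107).

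FUT1, the other H-antigen enzyme, lies 42060 bases from FUT2 on chromosome 19 and had a value of the opposite sign. It was at 0.448 ± 0.0857 FPKM in Vector and 0.235 ± 0.113 FPKM in OE-MMP28 (SD, n = 3), on 8 to 36 counts. The log2 fold change of -0.90 ± 0.41 missed the threshold (adjusted p = 0.119). FUT2 shares 1.90% of its transcript windows of 100 bases with the pseudogene SEC1P, which had 0 to 5 counts.

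FUT4, which makes Lewis x, went from 3.27, 2.70 and 1.95 FPKM to 5.17, 5.02 and 3.67 FPKM. The groups did not overlap, though OE-MMP28 library 3 was close to Vector library 1, and the log2 fold change was 0.82 ± 0.20 (adjusted p = 0.0059). Its 31 tested neighbours on chromosome 11 had a median of 0.43, and with that offset the adjusted p was 0.212. PIWIL4, on the same strand, shares 11.3% of the FUT4 exon bases and rose as well (50 to 77 counts in Vector, 140 to 184 in OE-MMP28, log2 fold change 1.30, adjusted p = 0.000791). How reads in the shared exon were assigned is not given in the sources used here.

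FUT11 and FUT10, less studied members of the family, were both lower on average. FUT11 was at 3.49, 5.18 and 5.10 FPKM in Vector and 2.91, 2.45 and 2.06 FPKM in OE-MMP28, with Vector library 1 nearest to the other group. Its log2 fold change was -0.88 ± 0.20 (adjusted p = 0.00328). Its 84 tested neighbours on chromosome 10 had a median of -0.44, and with that offset the adjusted p was 0.142. AC022400.8, on the opposite strand, covers 11.6% of FUT11 exon bases and had 6 to 19 counts a library. FUT10 had a log2 fold change of -0.50 ± 0.20 that missed the threshold (adjusted p = 0.0785) and passed it without Vector library 2 (0.0333) or without OE-MMP28 library 1 (0.0362).

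The summed level of the 8 fucosyltransferases was 16.9 ± 0.76 FPKM in Vector and 24.8 ± 2.16 FPKM in OE-MMP28 (SD, n = 3), 1.47 times higher, with no overlap. FUT8 made up 19.8 ± 4.10% of it in Vector and 39.0 ± 2.28% in OE-MMP28, FUT2 18.3 ± 1.44% and 23.7 ± 3.00%, FUT11 27.4 ± 6.70% and 9.94 ± 0.85%, and FUT10 16.2 ± 2.38% and 7.79 ± 0.70%. FUT8 was the leading fucosyltransferase transcript in each OE-MMP28 library, while FUT11 led in Vector libraries 2 and 3 and FUT8 in Vector library 1.

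**Figure D3:**
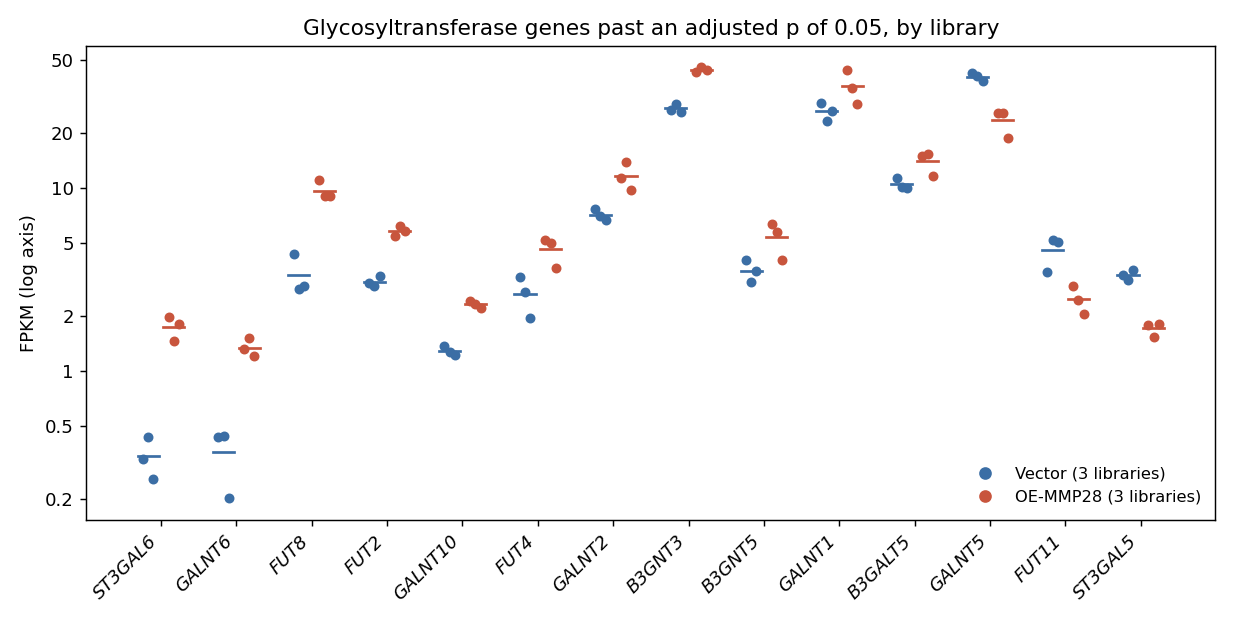
FPKM (log axis) in each library of the 14 enzyme genes past an adjusted p of 0.05, ordered by log2 fold change, with Vector in blue, OE-MMP28 in orange and a line at each group's mean. ST3GAL6 and GALNT6 lie below 0.5 FPKM in Vector and above 1 FPKM in OE-MMP28. The GALNT1 groups overlap slightly, with OE-MMP28 library 3 just under Vector library 1. The last 3 genes, GALNT5, FUT11 and ST3GAL5, are lower in OE-MMP28.

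The 10 untested genes were at or near 0. GALNT14 and ST6GAL1, an enzyme of terminal sialylation on N-glycans, had 0 counts in all 6 libraries, which allows up to 0.220 CPM. GALNT3, GALNT18, ST6GALNAC2, ST6GALNAC6, FUT3 and FUT6 had at most 8 counts in any library, so that the Lewis enzyme FUT3, with 0 or 1 count, was at the detection limit. FUT3 and FUT6 share 7.59% and 5.04% of their transcript windows with relatives, among them FUT5, which had 0 counts, and ST6GALNAC6 and ST6GALNAC2 share 43.8% and 28.2% of theirs with the overlapping genes AL157935.2 and AC015802.6. Reads from such windows may have been lost or split, so low counts of these 4 genes are uncertain there. The shared part is small in FUT3 and FUT6. ST6GALNAC2 had 4, 1 and 2 counts in Vector and 0, 0 and 0 in OE-MMP28. B3GNT7 had 6, 13 and 5 counts in Vector and 1, 3 and 4 in OE-MMP28. ST6GALNAC1, the sialyl Tn synthase, had 5, 23 and 7 counts in Vector and 1, 3 and 4 in OE-MMP28. With no filter on low counts ST6GALNAC1 was the one gene of the 10 to pass, with a log2 fold change of -2.26 (adjusted p = 0.0182). Vector library 2 held most of its Vector counts.

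The further genes of these families that are not among the 45 were mostly silent. Only 9 of 33 had enough counts, with 2 higher (22.2%, against 11.7% of all genes), 1 lower (11.1%, close to the 11.6% of all genes) and 6 not past the test. Of those below the filter, the sialyltransferase ST6GALNAC3 had 0, 0 and 1 counts in Vector and 8, 11 and 10 in OE-MMP28. With no filter on low counts its adjusted p was 0.0021. B3GNT8, a chain-extending relative, fell from 0.873, 1.26 and 0.797 FPKM to 0.135, 0.168 and 0.222 FPKM. These groups were far apart on 4 to 32 counts, with a log2 fold change of -2.43 ± 0.46 (adjusted p = 0.000868). AC011462.2, on the opposite strand, covers 18.4% of B3GNT8 exon bases. GALNT9 rose by 1.33 ± 0.37 (adjusted p = 0.0121), from 0.164 ± 0.0682 to 0.408 ± 0.0391 FPKM. It lost its call without Vector library 3 (0.0745) or OE-MMP28 library 2 (0.0531). The neighbours of GALNT9 had a median of 0.35, and with that offset the call was lost as well (adjusted p = 0.0736). B4GALT6, a second lactosylceramide synthase, had a log2 fold change of 0.53 ± 0.19 (adjusted p = 0.0451) with overlapping groups, and its call was lost in 12 of 17 alternatives, among them those without Vector library 2 or 3 or OE-MMP28 library 1 or 2. Without Vector library 3 or OE-MMP28 library 2 the count past the test was 1.

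Of 25 tested genes that make or transport the sugar nucleotides, 3 rose (12%, against 11.7% of all genes) and 1 fell (4%, against 11.6%). GFPT1, the first enzyme of the hexosamine pathway that feeds UDP-N-acetylglucosamine, was at 19.3, 14.7 and 16.3 FPKM in Vector and 8.29, 7.97 and 5.69 FPKM in OE-MMP28. No library of one group reached the other, and the log2 fold change was -1.18 ± 0.17 (adjusted p = 4.39e-05). The 62 tested neighbours of GFPT1 on chromosome 2 had a median of -0.50. With that offset the log2 fold change was -0.68 (adjusted p = 0.00831). GNPNAT1, the next enzyme of that pathway, rose instead, from 11.6, 6.40 and 8.83 FPKM to 20.1, 17.1 and 13.4 FPKM. Its log2 fold change was 0.92 ± 0.20 (adjusted p = 0.00227), its neighbours had a median of 0.62, and with that offset the adjusted p was 0.337. GMPPB, which makes GDP-mannose, the precursor of GDP-fucose, rose by 0.75 ± 0.19 (adjusted p = 0.00798, and 0.0636 without Vector library 3) and shares 42.3% of its exon bases with AMIGO3. MPI, which also leads to GDP-mannose, rose by 0.47 and passed in 2 of 17 alternatives. Opposite-strand genes cover 35.6% of the exon bases of GNPNAT1 (AL139317.3), 17.3% of GMPPB (RNF123) and 24.6% of MPI (FAM219B). Their parts in these values were not tested. Among those not past the test, the CMP-sialic acid enzymes GNE and CMAS gave 0.18 and 0.051 (adjusted p = 0.394 and 0.844). The number past the test in this list was 4, and 2 without Vector library 3.

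Among the enzymes that remove sialic acid or fucose, NEU1, the lysosomal sialidase, was the 1 of 4 tested to pass (25%, against 11.7% of all genes higher). It had 1, 3 and 6 counts in Vector and 22, 25 and 29 in OE-MMP28, with separate groups and a log2 fold change of 2.73 ± 0.54 (adjusted p = 0.00112). NEU1 and B3GALT4 lie in the major histocompatibility complex region of chromosome 6, for which the human assembly holds alternate haplotypes, and whether reads were aligned to those is not given in the sources used here. NEU3, FUCA1 and FUCA2 gave 0.45, 0.38 and 0.38 on the log2 scale and missed the threshold.

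**Figure D4:**
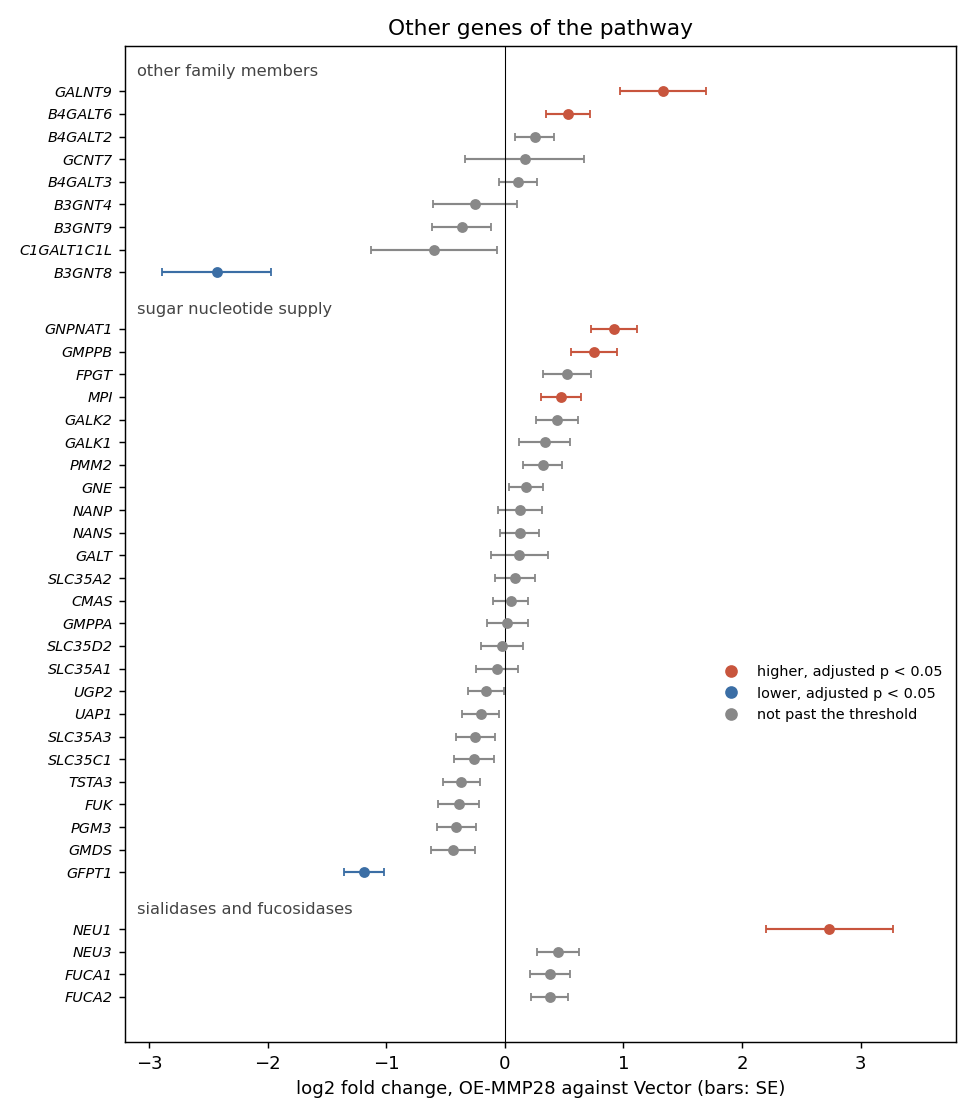
Log2 fold change of OE-MMP28 against Vector, with bars of 1 SE, for the tested genes of the same enzyme families outside the 45, of sugar nucleotide supply, and of sialidases and fucosidases. B3GNT8 at -2.43 and GFPT1 at -1.18 are the genes that fell, and NEU1 at 2.73 is the largest rise plotted.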

How the data were processed

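RNA of AsPC-1 cells was sequenced in 6 libraries, 3 per group, grouped and numbered by the sample labels. The authors deposited 1 table of whole-number read counts per gene and library, neither normalized nor pooled, and FPKM values that scale those counts by gene length and library total. The submitters' processing notes name HISAT2 2.0.5 and featureCounts 1.5.0-p3. The library kit does not mark strand. The strand setting and genome build are not given in the sources used here, but the coordinates of all 58735 gene identifiers equal those of GENCODE release 29 (GRCh38). The table also holds the authors' own fold changes, p-values and group means, which were not used. No per-sample column was left unmapped.

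The 45 genes and the further lists were chosen with earlier results of these data known, and 1 gene of the sugar nucleotide list is not reported here. The main test was edgeR 4.0.16 (R 4.3.3), by quasi-likelihood, on counts kept by filterByExpr (minimum count 10, total 15), with TMM scaling and the group as sole term. The study names limma, which was replaced because the values are counts. P-values were adjusted by Benjamini-Hochberg over 15319 genes and called at an adjusted p under 0.05. The SE is the log2 fold change divided by the square root of F. Groups were called separate on TMM-scaled CPM. Single values were compared by two-sided exact permutation tests, and limits for counts of 0 cover counting error only, since PCR copies cannot be told from separate molecules. Total counts were 13633249 to 16691458. No 2 libraries were alike within sampling noise.

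Genes with an adjusted p under 0.05 and separate groups, and the highest gene of each role, are given by library, and from each further list the 3 largest changes past the threshold. Overlaps with other genes were read from GENCODE exons, and shared transcript windows of 100 bases stood in for protein identity. The test was checked on simulated data, in which 15311 genes were tested. It recovered 28.8% of 66 genes changed 1.5-fold, 85.9% of 64 changed 2-fold and 100% of 66 changed 4-fold. Of all its calls there, 2.78% were false. The 17 alternatives were other scalings (DESeq2 size factors, upper quartile), no filter or 1 CPM in 3 libraries, DESeq2 1.42.0, limma 3.58.1 (voom, and with trend on log2 FPKM plus 1 or 0.1 where the mean FPKM was 0.5 or more), a replicate block, no mitochondrial genes, an offset for the median of at least 10 other tested genes within 5 Mb either side, and leaving out each library.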

Additional observations from a re-analysis of the deposited data

How the results depend on the processing

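The 17 alternatives gave 702 values for 42 single genes outside the summary counts, of which 618 kept direction and side of the threshold, 55 fell short of it, 3 passed it newly and 26 changed sign. The median over the enzyme genes stayed between 0.16 and 0.27. The number of enzyme genes higher was 7 under limma on log2(FPKM + 1) and on log2(FPKM + 0.1), where chain extension gave 1, other family members 1 and sialidases and fucosidases 0, and genes under the FPKM minimum were not tested. The local-median offset gave 1 enzyme gene lower, 1 for chain extension, 2 for fucosylation and 2 for sugar nucleotide supply. Leaving out 1 library gave 7 to 11 enzyme genes higher, 3 to 5 for initiation, 1 to 3 for chain extension, 1 to 3 for other family members and 2 to 6 for sugar nucleotide supply. The cause of these shifts was not tested. Shares of all genes under the same settings are not given, so the shifts may not be particular to these lists.

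Changes of sign fell on genes that had not passed the test. GALNT11 was -0.0075 under upper-quartile scaling. GALNT12 was -0.013 with DESeq2 size factors, -0.044 with upper-quartile scaling, -0.0035 with no filter, -0.020 at 1 CPM, -0.0066 in DESeq2, -0.024 without mitochondrial genes and -0.010 with the local offset. C1GALT1 was -0.0013, -0.034, -0.0094 and -0.013 under size factors, upper quartile, 1 CPM and no mitochondrial genes, and -0.0025 and -0.0032 under limma on FPKM plus 1 and plus 0.1. With the local offset B3GNT2 was 0.19, ST3GAL1 0.13 and ST3GAL4 -0.30. Leaving out a library gave -0.31 to 0.66 for GALNT4, -0.040 to 0.095 for GALNT11, -0.10 to 0.084 for GALNT12, -0.11 to 0.12 for C1GALT1 and -0.088 to 0.59 for B3GALT4.

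Replicate numbers did not pair the samples (same-number correlations of deviations 0.017, 0.0080 and -0.088). With the replicate block 10 enzyme genes were higher and 3 lower, against 11 and 3, the median was 0.24, and B3GALT5 was the one of the 45 genes to lose its call. With 3 libraries a group, changes of 1.5-fold were mostly missed in the simulated data. Far fewer genes changed there than passed the test here, and all genes were given the same spread, so that rate does not carry over. Values short of the threshold do not show that levels were alike.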
